A study of Mus musculus with 18 samples.

Results

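The genes described here are 10 members of the MHC class II pathway, chosen by name from the gene symbols of the deposited expression table, and all 10 were found among its 21761 genes. They are Ciita, Cd74, H2-Aa, H2-Ab1, H2-Eb1, H2-DMa, H2-DMb1, H2-DMb2, H2-Oa and H2-Ob. RNA was sequenced from 3 sorted cell types: naive B cells, here nB, B cells of the germinal center, here GCB, and plasma cells of the bone marrow, here BMPC. Each came from Dnmt3-sufficient and from Dnmt3-deficient mice, with 3 libraries in each of the 6 groups and 5000 sorted cells per library. The question for these genes was how far each one differed between the nB, the GCB and the BMPC stage, and whether loss of the de novo DNA methyltransferases moved any of them.

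All mice, controls included, were of a mixed B6;129S4 background and homozygous for floxed Dnmt3a and Dnmt3b alleles (Dnmt3afl/fl Dnmt3bfl/fl). Dnmt3-sufficient mice had no Cre allele, and Dnmt3-deficient mice carried 1 Cre allele active in B lineage cells, which removed the catalytic exons from the pre-B stage on. The Cre allele and the deletion therefore cannot be told apart in this design. By the study's methods the mice were young adults and each library came from its own mice. The nB (B220+ GL7- Fas-) came from the lymph nodes of unimmunized mice. The GCB (B220+ GL7+ Fas+ PE+), from lymph nodes, and the BMPC (CD138+), from bone marrow, were collected 30 days after immunization with phycoerythrin in complete Freund's adjuvant, and each GCB sample pooled a pair of mice. Cell type is thus tied to organ and immunization.

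MHC class II molecules are alpha-beta heterodimers that carry peptides from the endosome to the surface of antigen-presenting cells, where CD4 T cells read them. Their genes are switched on together by CIITA, a coactivator with no DNA-binding domain of its own, which docks on the RFX, CREB and NF-Y proteins bound to a shared X-Y promoter module. Naive and germinal center B cells use the pathway to obtain T cell help. Plasma cells are known to silence it, and the plasma cell repressor Blimp-1 (Prdm1) acts on Ciita.

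Of the 10 members, 7 had a promoter window in the RefSeq promoter table (GRCm38.p6, 250 bases before to 50 after each start, 8 windows in all because H2-DMa has a pair of starts). The stretches below are shown because they hold the Y box core, the NF-Y site of the class II module. They were searched for GATTGG, here called the Y core, on both strands. Its letters are in capitals, and so are those of AACNNATG, a loose core of the X box, which was chosen after these promoters had been read. Each line runs 5′ to 3′ on the strand of the gene.
H2-Oa: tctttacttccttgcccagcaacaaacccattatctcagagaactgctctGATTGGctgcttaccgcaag
H2-DMb2: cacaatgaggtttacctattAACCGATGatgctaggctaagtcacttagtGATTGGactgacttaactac
H2-DMb1: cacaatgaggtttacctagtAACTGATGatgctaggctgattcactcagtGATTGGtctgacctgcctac
H2-Ob: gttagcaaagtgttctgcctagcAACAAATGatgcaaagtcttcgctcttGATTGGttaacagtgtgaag
H2-Aa: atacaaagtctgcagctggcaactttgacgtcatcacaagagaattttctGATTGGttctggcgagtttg
H2-Eb1: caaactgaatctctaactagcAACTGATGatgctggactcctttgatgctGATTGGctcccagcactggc

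The stretches lie at chr17:34092285-34092354 for H2-Oa, chr17:34145108-34145177 for H2-DMb2, chr17:34153079-34153148 for H2-DMb1, chr17:34238797-34238866 for H2-Ob, chr17:34287853-34287922 on the minus strand for H2-Aa and chr17:34305757-34305826 for H2-Eb1. In these 6 promoters the Y core shown began 44 to 91 bases before the start and ran in the direction of the gene. H2-Eb1 held another Y core on the opposite strand, 35 bases before the start. H2-DMa had none in its first window and one 199 bases before the start of its second. Of all 32851 promoter windows in the table, 16.1% held the Y core on either strand. The AACNNATG core was found in 4 members, H2-DMb1, H2-DMb2, H2-Ob and H2-Eb1, and in 8.86% of all windows. In these 4 members it stood 19 to 22 bases before the Y core, and 0.158% of all windows had it 5 to 60 bases ahead of a Y core on the same strand. The stricter X core GCAACNG, which overlaps AACNNATG where both occur, was found in 12.7% of windows and in 1 member, H2-Eb1, where it was followed by the Y core, as in 0.283% of windows. A match is a run of letters, not a binding site, and windows for Ciita, Cd74 and H2-Ab1 were not used here.

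By the mm9 annotation, the 8 class II chain genes lie within one stretch of chromosome 17, in the order H2-Oa (chr17:34229285-34232179), H2-DMa (chr17:34272127-34276046), H2-DMb2 (chr17:34280252-34288498), H2-DMb1 (chr17:34290017-34297168), H2-Ob (chr17:34375848-34390850), H2-Ab1 (chr17:34400154-34406363), H2-Aa (chr17:34406276-34424772) and H2-Eb1 (chr17:34442828-34453144). All but H2-Aa are on the plus strand. Ciita lies on chromosome 16 (chr16:10480237-10527657) and Cd74 on chromosome 18. The annotated extents of H2-Ab1 and H2-Aa share 88 bases on opposite strands, and the strand setting of the counting is not given in the sources used here. H2-DMb1 and H2-DMb2 are close paralogs, with 27.1% of the 50-base exon windows of H2-DMb1 found in H2-DMb2 as well, so reads could be divided between them uncertainly.

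Values are FPKM, read counts scaled by exon length and by the reads counted in the library. Total counted reads were 6692516 to 8987922 for nB, 7644544 to 8903872 for GCB and 1355231 to 3803197 for BMPC, so the BMPC values are the least precise. Markers of plasma cells summed to 19358 to 52088 FPKM in the BMPC libraries and to 349 to 540 in nB, and those of mature B cells to 151 to 450 in BMPC and 3754 to 4654 in nB. The BMPC libraries also held 8 neutrophil markers at a summed 9.37 to 675 FPKM, which were at 0 in every nB and GCB library. Dnmt3a was at 2.24 to 4.33 FPKM in Dnmt3-deficient nB and at 2.35 to 5.18 in Dnmt3-sufficient nB. A whole-gene value checks nothing here, since the deletion removes only some exons.

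In nB the members were among the strongly expressed genes, taking 3.20 to 3.63% of all counted reads. Cd74, the invariant chain that escorts class II dimers and blocks their groove, had the highest mean, 10779 ± 655 FPKM (SD, n = 6 over both genotypes). The classical chains followed, with the beta chain gene H2-Ab1 at 3763 ± 260, the beta chain gene H2-Eb1 at 1858 ± 145 and the alpha chain gene H2-Aa at 1843 ± 117 FPKM. H2-Eb1 and H2-Aa overlapped in their ranges, while Cd74 and H2-Ab1 each stood clear of the next gene. The subunits of the peptide exchange factor H2-M came next, H2-DMb2 at 759 ± 81.9, H2-DMa at 674 ± 61.8 and H2-DMb1 at 450 ± 45.7 FPKM. The subunits of its inhibitor H2-O were at a like level, H2-Ob at 602 ± 58.1 and H2-Oa at 426 ± 51.9 FPKM, and neighbours from H2-DMb2 down to H2-Ob overlapped, as did H2-DMb1 and H2-Oa. Ciita was lowest, at 95.6 ± 14.2 FPKM, below every value of the other members.

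GCB kept nearly the same order at a lower level. The members took 1.79 to 2.06% of counted reads. Cd74 averaged 6271 ± 459, H2-Ab1 2156 ± 182, H2-Eb1 1068 ± 66.1 and H2-Aa 1036 ± 63.0 FPKM. H2-DMa (425 ± 37.3) and H2-DMb2 (388 ± 57.4) overlapped, followed by H2-Ob (219 ± 32.9), H2-DMb1 (214 ± 24.2), H2-Oa (140 ± 20.3) and Ciita (47.2 ± 9.59 FPKM). As a share of the nB mean, GCB kept 32.9% of H2-Oa and 36.4% of H2-Ob, but 47.5 to 63.0% of every other member. Within each genotype, the 3 GCB values lay below the 3 nB values for each of the 10 members, which was true of 25% of all tested genes in Dnmt3-sufficient and 25.7% in Dnmt3-deficient cells.

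In BMPC the pathway came apart. Ciita had no read in any of the 6 libraries. In Dnmt3-sufficient nB it had been at 88.2, 103 and 115 FPKM, and in Dnmt3-deficient nB at 106, 77.9 and 84.6. Against a limit of 3 reads per library, its BMPC level was at least 806-fold lower than in nB in Dnmt3-sufficient mice and at least 392-fold lower in Dnmt3-deficient mice. Against GCB the bounds were 345-fold and 223-fold. These bounds cover counting error only.

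Cd74 did not follow. It was at 6402, 4890 and 3877 FPKM in the Dnmt3-sufficient and at 7084, 7532 and 9612 FPKM in the Dnmt3-deficient BMPC libraries, which is 45.7% and 77.0% of the nB mean of the same genotype. It remained the most highly expressed member in each BMPC library, and its range overlapped that of no other member. The BMPC values fell below every nB value in both genotypes, yet they overlapped the GCB values in Dnmt3-sufficient mice and lay above them in Dnmt3-deficient mice.

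**Figure D1:**
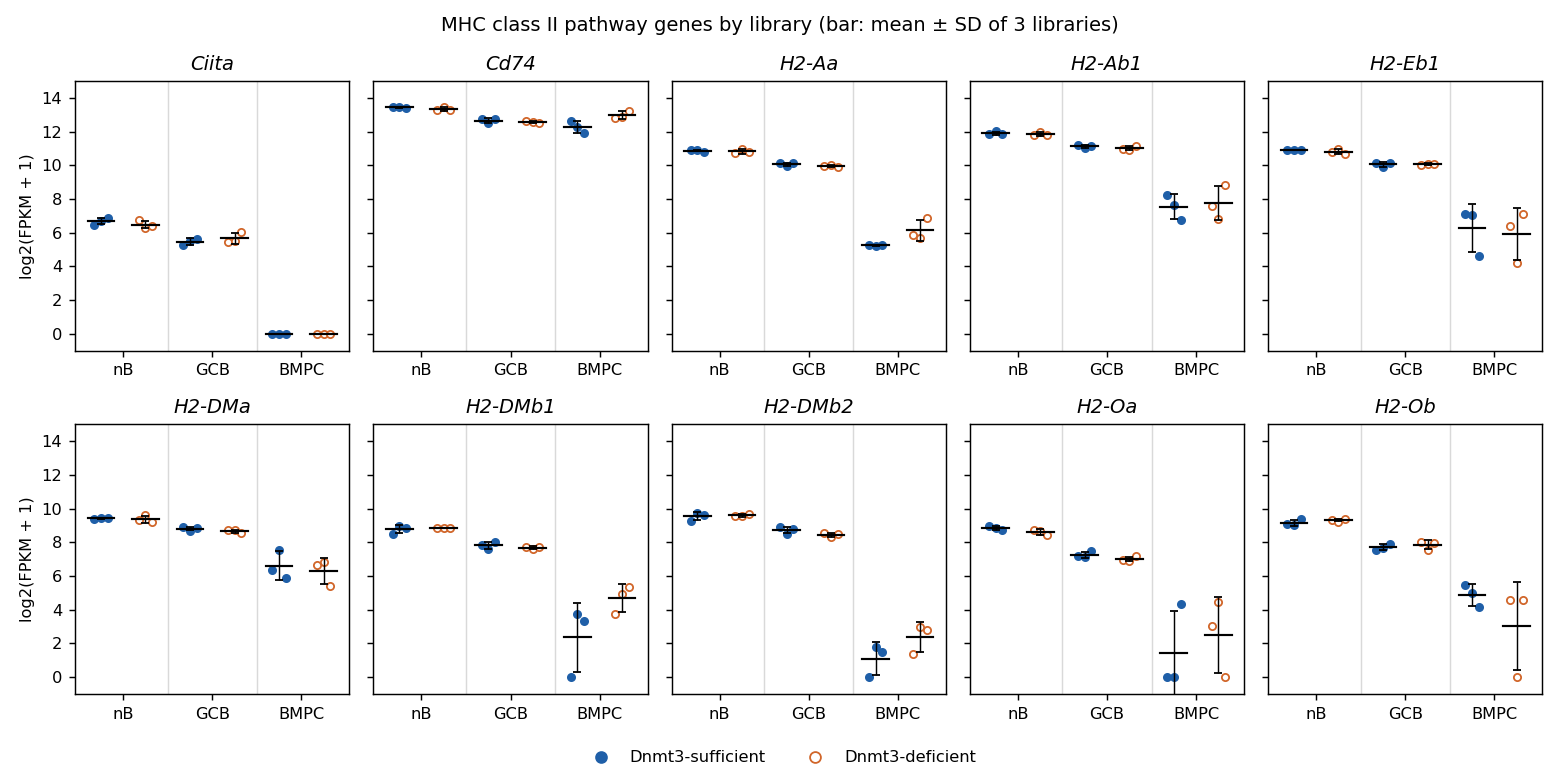
Level of each of the 10 genes as log2(FPKM + 1) (vertical axis) in nB, GCB and BMPC. Filled points are the 3 Dnmt3-sufficient and open points the 3 Dnmt3-deficient libraries, with the mean and SD as bars. Ciita drops to 0 in all 6 BMPC libraries while Cd74 stays between 3877 and 9612 FPKM.

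The classical chains were left at a few percent of their nB level. H2-Aa was at 37.5, 35.8 and 37.5 FPKM in Dnmt3-sufficient and at 57.8, 51.1 and 115 FPKM in Dnmt3-deficient BMPC. The groups did not overlap, and these values came to 1.97% and 4.11% of nB. H2-Ab1 was at 305, 197 and 108 FPKM against 188, 114 and 451, and H2-Eb1 at 138, 134 and 23.5 FPKM against 83.6, 17.1 and 139. Both genotypes overlapped widely for the latter genes, which kept 5.31% and 6.78% (H2-Ab1) and 5.14% and 4.44% (H2-Eb1) of nB.

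Among the peptide loading genes, H2-DMa kept the most. Its values were 82.2, 188 and 57.3 FPKM in Dnmt3-sufficient and 100, 113 and 40.6 FPKM in Dnmt3-deficient BMPC, which left a larger share of nB than for any other member but Cd74, 12.7% in Dnmt3-deficient mice. Its beta chain partners were far lower. H2-DMb1 was at 0, 12.4 and 9.05 FPKM against 12.3, 29.2 and 39.9, and H2-DMb2 at 0, 2.44 and 1.86 FPKM against 1.55, 6.85 and 5.96, the latter resting on at most 16 reads in a library. The H2-O genes were detected in some libraries only. H2-Oa was at 0, 0 and 18.8 FPKM against 7.20, 20.8 and 0, and H2-Ob at 43.9, 30.4 and 16.7 FPKM against 22.4, 0 and 22.6. In BMPC the ranges of all neighbours in the order below Cd74 overlapped.

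The tests used limma on log2(FPKM + 1) over all 18 libraries, with Benjamini-Hochberg adjustment over 11522 genes, and passing took both an adjusted p no higher than 0.05 and a difference of at least 1 on this log2 scale. All 10 members passed as lower in BMPC than in nB in Dnmt3-sufficient mice, where 27.6% of all tested genes passed as lower, and all 10 lay wholly below nB, as did 32.3% of tested genes. In Dnmt3-deficient mice 9 of 10 passed, against 30.6% of tested genes, and Cd74 was the exception. All 10 again lay wholly below nB, beside 36.2% of tested genes. The difference was −6.68 ± 0.33 (SE) for Ciita in Dnmt3-sufficient mice (adjusted p = 4.92e-10, a size set by the pseudocount since BMPC was at 0), −5.63 ± 0.20 for H2-Aa (adjusted p = 1.73e-11) and −8.43 ± 0.42 for H2-DMb2 (adjusted p = 4.92e-10). For H2-DMa it was −2.81 ± 0.36 (adjusted p = 1.49e-05). Over the members the median difference was −5.13 and −4.79 in the respective genotypes, and over all tested genes −0.70 and −0.84. It is the same with Ciita at its bound. Cd74 differed by −1.16 ± 0.14 (adjusted p = 5.83e-06) and −0.39 ± 0.14 (adjusted p = 0.0319). The first fell short of the minimum size when the third Dnmt3-sufficient BMPC library was left out, at −0.98.

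Between BMPC and GCB, 9 of 10 members passed as lower in each genotype, where 20.9% of tested genes did so in Dnmt3-sufficient and 26.1% in Dnmt3-deficient mice. For the same 9, BMPC lay wholly below GCB, beside 32.2% and 35.7% of tested genes. Cd74 was again the exception, at −0.38 ± 0.14 (adjusted p = 0.0416) and +0.40 ± 0.14 (adjusted p = 0.0304), both under the minimum size. Rescaling the libraries by the median of ratios moved these to −0.24 (adjusted p = 0.254) and +0.71 (adjusted p = 0.00183), and the Dnmt3-deficient difference of Cd74 from nB to −0.12 (adjusted p = 0.569). The largest fall was that of H2-DMb2, −7.63 ± 0.42 in Dnmt3-sufficient mice (adjusted p = 2.32e-09), and the smallest of those that passed was H2-DMa, −2.21 ± 0.36 (adjusted p = 0.000232).

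**Figure D2:**
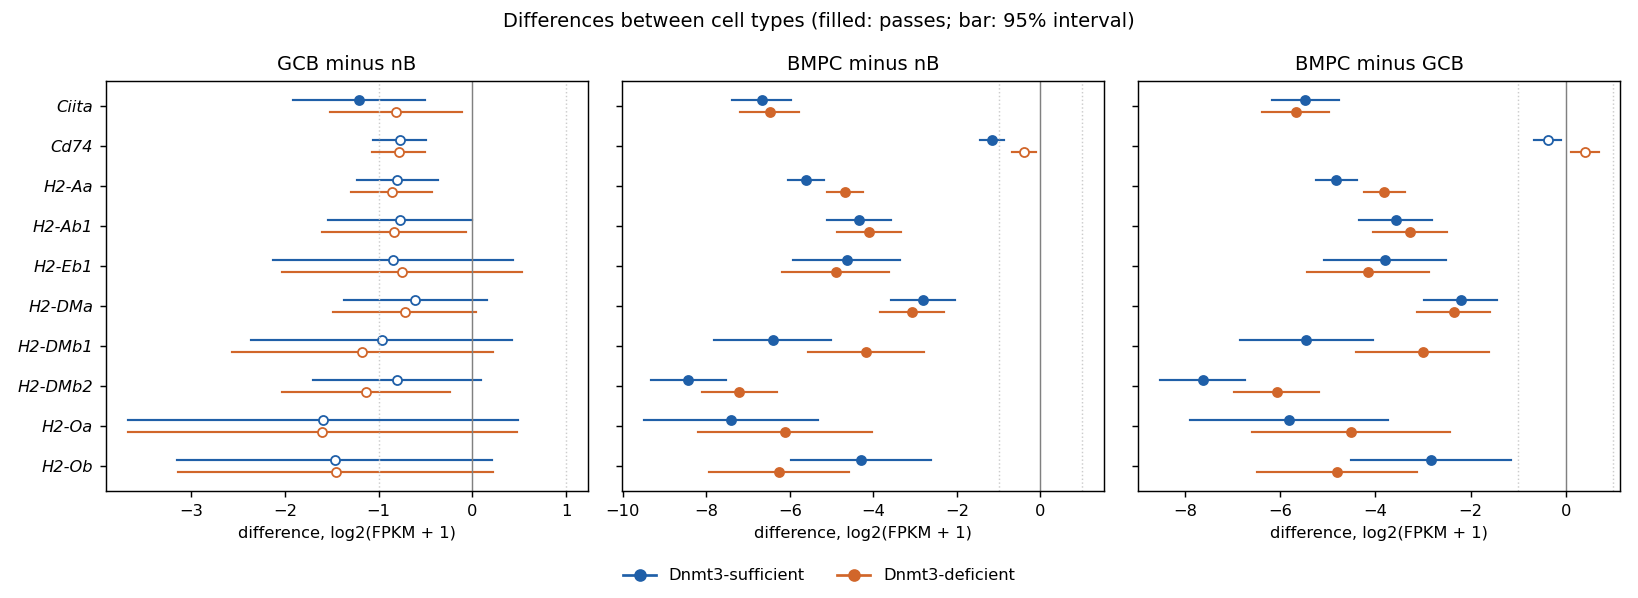
Difference between cell types on the log2(FPKM + 1) scale (horizontal axis, one panel per comparison) for each gene, by genotype. Points are estimates, bars 95% intervals, and filled points pass. In both BMPC panels Cd74 sits within 1.16 of 0 while the other 9 genes lie at −2.21 or lower.

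Between GCB and nB, the same model passed 1 of 10 members in Dnmt3-sufficient mice, Ciita (−1.21 ± 0.33, adjusted p = 0.0197), where 6.93% of tested genes passed as lower. It passed 0 in Dnmt3-deficient mice, where 6.61% of tested genes passed as lower. In the latter, 5 of 10 had an unadjusted p under 0.05, beside 24.9% of tested genes, and Ciita was at −0.81 ± 0.33 (adjusted p = 0.129). The Ciita call was lost without the second or the third nB library or without the first or the second GCB library of that genotype (adjusted p 0.063 to 0.0869). Without the minimum size, Ciita, Cd74 and H2-Aa were lower in Dnmt3-sufficient mice and Cd74 and H2-Aa in Dnmt3-deficient mice, beside 7.15% and 6.93% of tested genes. In this model the spread of a gene is shared with the BMPC libraries. Fitted on the 6 libraries of each comparison alone, no member had an adjusted p above 0.05 in either genotype (highest 0.00209 in Dnmt3-sufficient and 0.0165 in Dnmt3-deficient mice), while 18.9% and 19.4% of tested genes were lower by this measure. Of these, 3 (Ciita, H2-Oa and H2-Ob) and 4 (H2-DMb1, H2-DMb2, H2-Oa and H2-Ob) also reached a difference of 1, beside 16.1% and 16.2% of tested genes. In the model over all libraries the estimates, sufficient before deficient, were −1.47 and −1.46 for H2-Ob and −0.78 and −0.79 for Cd74.

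The ratios of Cd74 and of the classical chains to each other were in like ranges in nB and GCB. In BMPC those of Cd74 to the classical chains rose, and those between the classical chains spread more widely. H2-Oa and H2-Ob, as given above, kept a smaller share of nB in GCB than the other members. The ratio of Cd74 to H2-Ab1 FPKM ran from 2.71 to 3.04 in nB and from 2.49 to 3.21 in GCB. In BMPC it ran from 21.0 to 66.2. Of the members' reads, Cd74 accounted for 43.6 to 45.9% (nB), 43.9 to 47.7% (GCB) and 87.5 to 94.8% (BMPC). The ratio of H2-Ab1 to its alpha chain partner H2-Aa was 1.93 to 2.17 (nB), 1.87 to 2.36 (GCB) and 2.23 to 8.13 (BMPC), and that of H2-Eb1 to H2-Aa was 0.93 to 1.08, 0.97 to 1.13 and 0.33 to 3.75. Without Ciita and Cd74, the 8 chain genes summed to 9710 to 11055 FPKM in nB and 5245 to 6131 in GCB over both genotypes, and to 273 to 813 in BMPC.

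**Figure D3:**
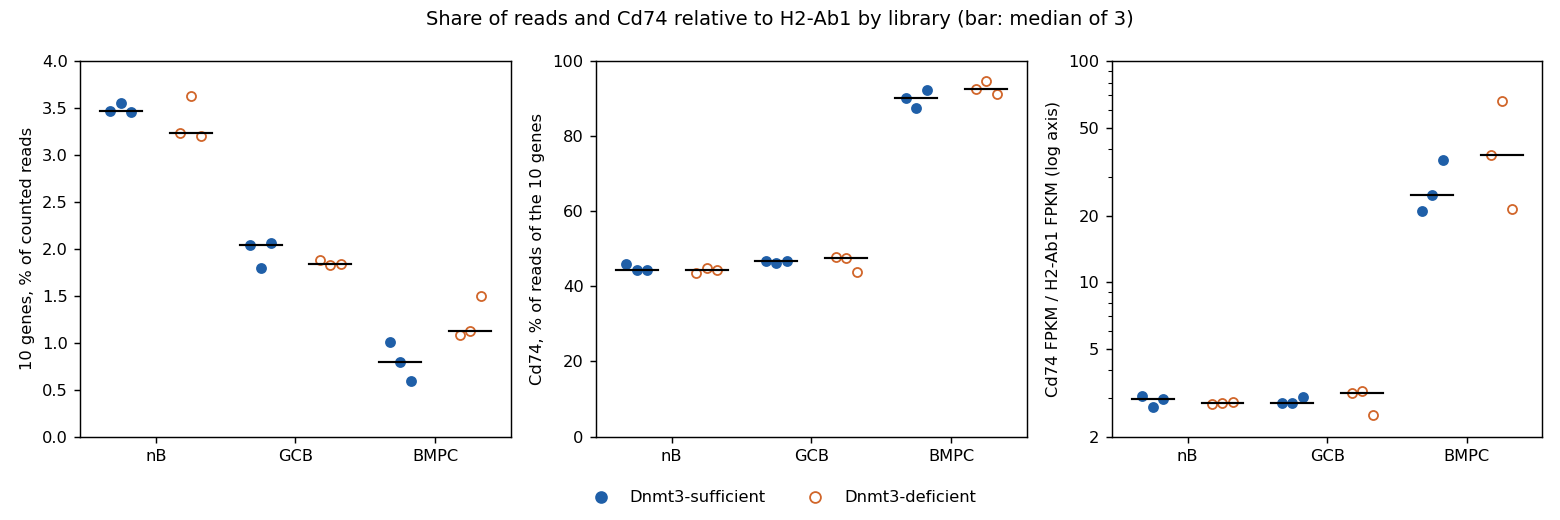
Left, share of counted reads held by the 10 genes (%). Middle, share of those reads from Cd74 (%). Right, ratio of Cd74 to H2-Ab1 FPKM on a log axis. Points are libraries, filled for Dnmt3-sufficient and open for Dnmt3-deficient, and bars are medians of 3. Cd74 rises from 43.6 to 47.7% of the members' reads in nB and GCB to 87.5 to 94.8% in BMPC.

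These are bulk samples, in which fewer cells of a type and less RNA per cell cannot be told apart, and the low BMPC values could hold RNA of other cells. Of 10 macrophage markers, which label cells that also use this pathway, 5 to 9 were at 0 in a BMPC library, and their summed level was 71.0 to 98.0 FPKM in Dnmt3-sufficient and 98.4 to 239 in Dnmt3-deficient BMPC, mostly Cd68, beside 5.26 to 78.4 in nB. Of 10 dendritic cell markers, 6 to 8 were at 0 in a BMPC library and their sum was 8.14 to 43.6 FPKM. Zbtb46, Batf3, Clec9a, Cd209a and Clec10a were at 0 in all 6. Flt3, Ccr9 and Siglech had reads in BMPC of both genotypes, and Xcr1 and Itgax in Dnmt3-deficient BMPC only. The T cell list, of 7 markers found, summed to 73.6 to 237 FPKM in BMPC and to 63.0 to 173 in nB. Germinal center markers summed to 18.5 to 83.5 FPKM in BMPC and 1298 to 1498 in GCB. The sort carried a gate against myeloid and T cell surface markers. The part of these cells in the low class II values of BMPC was not tested.

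The genotypes were compared next. In nB, 0 of 10 members passed, as against 0.0521% of tested genes (6 of 11522), and none had an unadjusted p under 0.05, beside 2.71% of tested genes. The estimates ran from −0.24 for H2-Oa to +0.14 for H2-Ob. Dnmt3-deficient nB had Cd74 at 10485 ± 873 FPKM (SD, n = 3) and Dnmt3-sufficient nB at 11073 ± 226, a difference of −0.08 with a 95% interval of −0.37 to 0.20. In GCB, 0 of 10 passed, as did 0 of all tested genes, and none had an unadjusted p under 0.05, beside 1.08% of tested genes. The estimates ran from −0.27 for H2-DMb2 to +0.20 for Ciita, and Cd74 was at 6065 ± 319 FPKM in Dnmt3-deficient and 6477 ± 545 in Dnmt3-sufficient GCB, a difference of −0.09 (−0.38 to 0.19). For each member the genotypes overlapped in nB and in GCB, while 8.84% and 10.6% of tested genes did not overlap there. The intervals rest on a spread shared with the BMPC libraries, and that for H2-Oa in nB ran from −2.32 to 1.84.

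In BMPC, 0 of 10 members passed between genotypes, while 3.98% of tested genes did so in either direction, and 5 members had an unadjusted p under 0.05, beside 20.3% of tested genes. For Cd74 and H2-Aa all 3 Dnmt3-deficient values lay above all 3 Dnmt3-sufficient values, as was the case for 3.02% of tested genes. Cd74 was higher by 0.69 ± 0.14 (adjusted p = 0.00764) and H2-Aa by 0.90 ± 0.20 (adjusted p = 0.0191), both short of the minimum difference of 1. With no minimum size, 1.43% of tested genes were higher. Both estimates rest on a spread shared with the nB and GCB libraries. With the 6 BMPC libraries alone, where 0 of 8724 tested genes passed, the limma 95% interval was 0.34 to 1.05 for Cd74 (unadjusted p = 0.000973, adjusted p = 0.413) and −0.25 to 2.05 for H2-Aa (unadjusted p = 0.116, adjusted p = 0.681). In that fit the interval for Cd74 lay above 0, but Cd74 was not called once the number of genes tested was allowed for. The interval for H2-Aa held 0.

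Of the other members, H2-DMb1 was higher by 2.31 ± 0.66 (adjusted p = 0.0549) and H2-DMb2 by 1.27 ± 0.42 (adjusted p = 0.0917), H2-Ob was at −1.83 ± 0.80 (adjusted p = 0.20), and the estimates for H2-Ab1 (+0.19), H2-Eb1 (−0.37) and H2-DMa (−0.31) changed sign when single libraries were left out. Leaving out each BMPC library in turn gave 0 to 3 passing members. Without the first Dnmt3-deficient library H2-Aa, H2-DMb1 and H2-DMb2 passed, without the second H2-Aa passed, without the second Dnmt3-sufficient library H2-DMb1 and H2-DMb2 passed, and without the third H2-DMb1 passed. With libraries rescaled by the median of ratios, H2-Aa (+1.08, adjusted p = 0.00586) and H2-DMb1 (+2.53, adjusted p = 0.0438) passed.

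**Figure D4:**
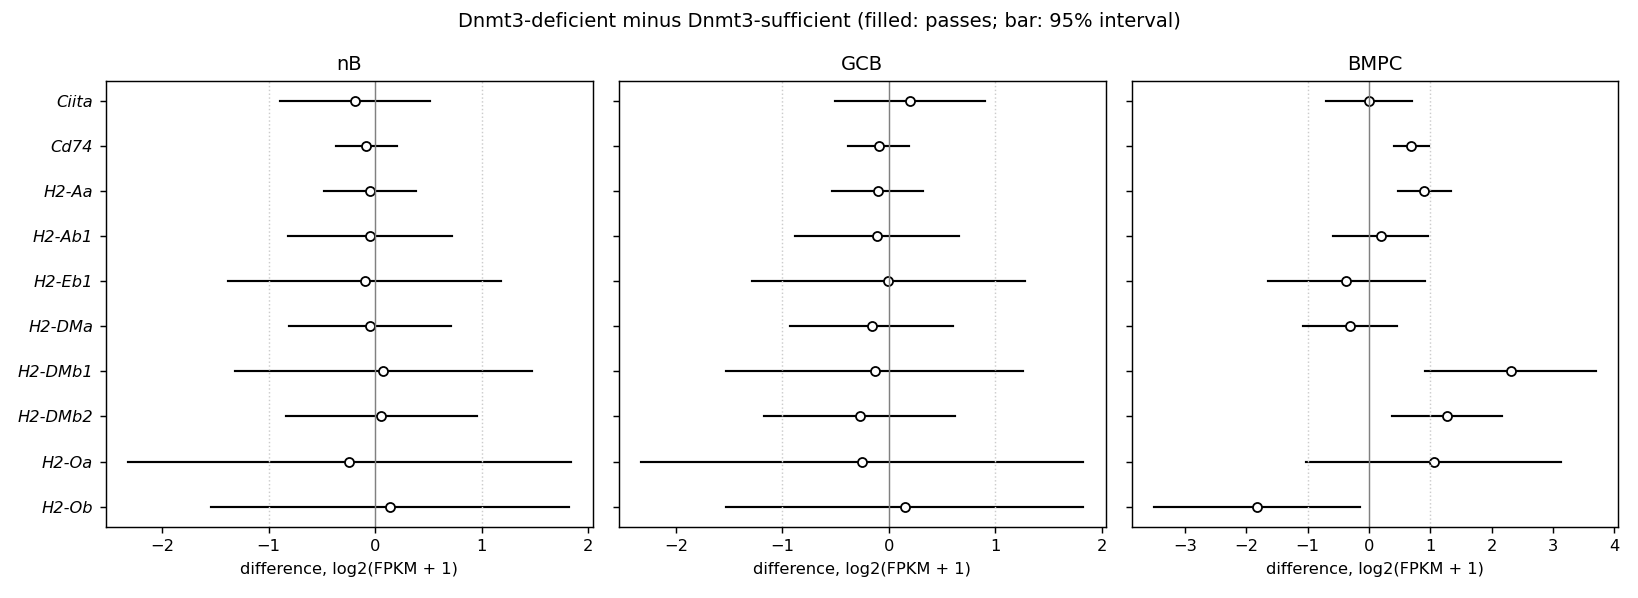
Dnmt3-deficient minus Dnmt3-sufficient difference on the log2(FPKM + 1) scale (horizontal axis) for each gene in nB, GCB and BMPC. Points are estimates and bars 95% intervals, and open points do not pass. No gene passes. In nB and GCB every interval spans 0, and in BMPC those of Cd74, H2-Aa, H2-DMb1 and H2-DMb2 lie above 0 and that of H2-Ob below. These intervals rest on a spread shared over all libraries. With the BMPC libraries alone, of the genes just named only Cd74 has an interval clear of 0.

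Whether the genotype difference itself differed between cell types was tested as an interaction. For BMPC against nB, 0 of 10 members passed, beside 0.555% of tested genes, with Cd74 at +0.77 ± 0.19 (adjusted p = 0.0807) and H2-Aa at +0.95 ± 0.29 (adjusted p = 0.189), and 3 members had an unadjusted p under 0.05, beside 11.9% of tested genes. For BMPC against GCB 0 of 10 passed, beside 0.425% of tested genes, and 4 had an unadjusted p under 0.05, beside 9.43%. For GCB against nB 0 of 10 passed, beside 0% of tested genes, and 0 had an unadjusted p under 0.05, beside 1.77%.

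Marker genes also differed in level between the BMPC genotypes. Cd68, a lysosomal protein of macrophages, was at 44.7, 87.6 and 40.5 FPKM in Dnmt3-sufficient and at 98.4, 158 and 145 FPKM in Dnmt3-deficient BMPC, a difference that did not pass (adjusted p = 0.424). The rest of the macrophage list did not follow as one. Lyz2 was at 15.3, 0 and 23.0 FPKM against 0, 44.1 and 69.3. Itgam and C1qb had reads in Dnmt3-sufficient BMPC only, and Adgre1 in Dnmt3-deficient BMPC only. In the first Dnmt3-deficient library 9 of the 10 macrophage markers, all but Cd68, were at 0. Fcrla, a B cell gene, was at 112, 178 and 83.9 FPKM against 188, 322 and 295, and passed (+1.13, adjusted p = 0.0187). The 10 mature B cell markers summed to 151 to 262 FPKM and 357 to 450, and the 10 plasma cell markers to 19358 to 30415 and 34805 to 52088, with no overlap between genotypes. Not every gene moved with its sum. Irf4, of the plasma cell list, went the other way, at 37.3, 55.2 and 44.1 FPKM against 14.5, 0.32 and 27.9. Of single tested genes, 3.02% lay wholly higher and 7.31% wholly lower in Dnmt3-deficient BMPC. BMPC libraries also held different numbers of reads, 16368, 14443 and 30818 for Cd74 in Dnmt3-deficient and 19895, 26317 and 19910 in Dnmt3-sufficient mice. The part of these in the Cd74 and H2-Aa differences was not tested.

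Other genes of the pathway were described from a list of 36, of which 35 were found. Between BMPC and nB, 3 were higher and 20 lower in Dnmt3-sufficient mice, and 3 higher and 16 lower in Dnmt3-deficient mice, where 9.74% and 6.85% of all tested genes were higher and 27.6% and 30.6% lower. These shares also stand beside the counts by role that follow. Of 7 promoter-binding factors, 4 were lower in Dnmt3-sufficient BMPC (Rfx5, Rfxank, Nfya and Nfyc) and 1 in Dnmt3-deficient BMPC (Rfx5). Rfx5, the DNA-binding subunit of RFX, had differences of −2.07 ± 0.64 (adjusted p = 0.0174) and −2.41 ± 0.64 (adjusted p = 0.00707), while Nfyb, an NF-Y subunit, was at 22.0 and 27.7 FPKM in BMPC and at 27.8 and 22.2 in nB and did not pass.

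Of 9 regulators of Ciita, 6 fell and 1 rose in Dnmt3-sufficient and 7 fell and 1 rose in Dnmt3-deficient BMPC, beside the 27.6% and 30.6% of tested genes that were lower. Pax5, which maintains B cell identity, averaged 52.6 and 58.2 FPKM in nB, 15.6 and 19.4 in GCB, and had no read in any BMPC library, at least 63.9-fold and 39.3-fold lower than in nB by the limit of 3 reads. Spib, an ETS factor of B cells, was likewise at 0 in all 6 BMPC libraries, at least 411-fold and 184-fold lower. Irf8, another B cell regulator, fell by 3.43 ± 0.47 on the log2 scale (adjusted p = 3.05e-05) in Dnmt3-sufficient and by 4.15 ± 0.47 (adjusted p = 5.07e-06) in Dnmt3-deficient BMPC. The riser was Prdm1, which averaged 0.25 and 0.13 FPKM in nB and 7.16 and 25.4 FPKM in BMPC (+2.29 and +4.22). In BMPC it was at 0.84, 14.5 and 6.14 FPKM in Dnmt3-sufficient and at 23.8, 45.2 and 7.15 FPKM in Dnmt3-deficient libraries. The first of these Dnmt3-sufficient values rested on 10 reads and lay near the 0.75 FPKM of the second Dnmt3-sufficient nB library.

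The lysosomal genes did not move as one. Ctss, the cathepsin that cleaves the last fragment of the invariant chain in B cells, fell in GCB by 1.96 ± 0.12 (adjusted p = 7.17e-09) in Dnmt3-sufficient and by 1.77 ± 0.12 (adjusted p = 3.72e-08) in Dnmt3-deficient mice. In BMPC it was at 1216, 1036 and 869 FPKM in Dnmt3-sufficient and at 1853, 1620 and 1684 FPKM in Dnmt3-deficient mice, and it did not pass against nB in either genotype (0.00 and +0.91). Ctsd rose in Dnmt3-sufficient and Ctsb in Dnmt3-deficient BMPC. Ifi30, a thiol reductase that opens disulfide bonds of antigens, fell by 4.35 ± 1.14 (adjusted p = 0.00664) and by 3.94 ± 1.14 (adjusted p = 0.0121), and Ctsh, an aminopeptidase, by 3.52 ± 0.57 (adjusted p = 0.000156) and by 2.81 ± 0.57 (adjusted p = 0.00112).

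Among 4 genes of class II turnover and invariant chain signalling, Cd83, which stabilises surface class II by opposing the ubiquitin ligase March1, averaged 457 and 561 FPKM in nB. In BMPC it was at 8.13, 0.12 and 7.87 FPKM in Dnmt3-sufficient and at 13.9, 0 and 0.39 FPKM in Dnmt3-deficient mice, the latter mean resting on 1 library. March1 fell as well, from 61.6 and 50.2 FPKM to 0 and 3.01, with reads in 1 of the 3 Dnmt3-deficient libraries. Mif, a ligand of the invariant chain, rose from 162 and 155 to 604 and 367 FPKM. H2-Eb2, a class II gene beside H2-Eb1, averaged 28.9 and 26.3 FPKM in nB and 0.58 and 0 in BMPC. The class I processing genes that lie between H2-DMb1 and H2-Ob did not all follow. Psmb8 averaged 543 and 458 FPKM in nB and 377 and 411 in BMPC, Psmb9 256 and 254 in nB and 253 and 252 in BMPC, and neither passed. Tap1 fell by 3.46 ± 0.67 (adjusted p = 0.000698) and by 4.04 ± 0.67 (adjusted p = 0.000205).

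**Figure D5:**
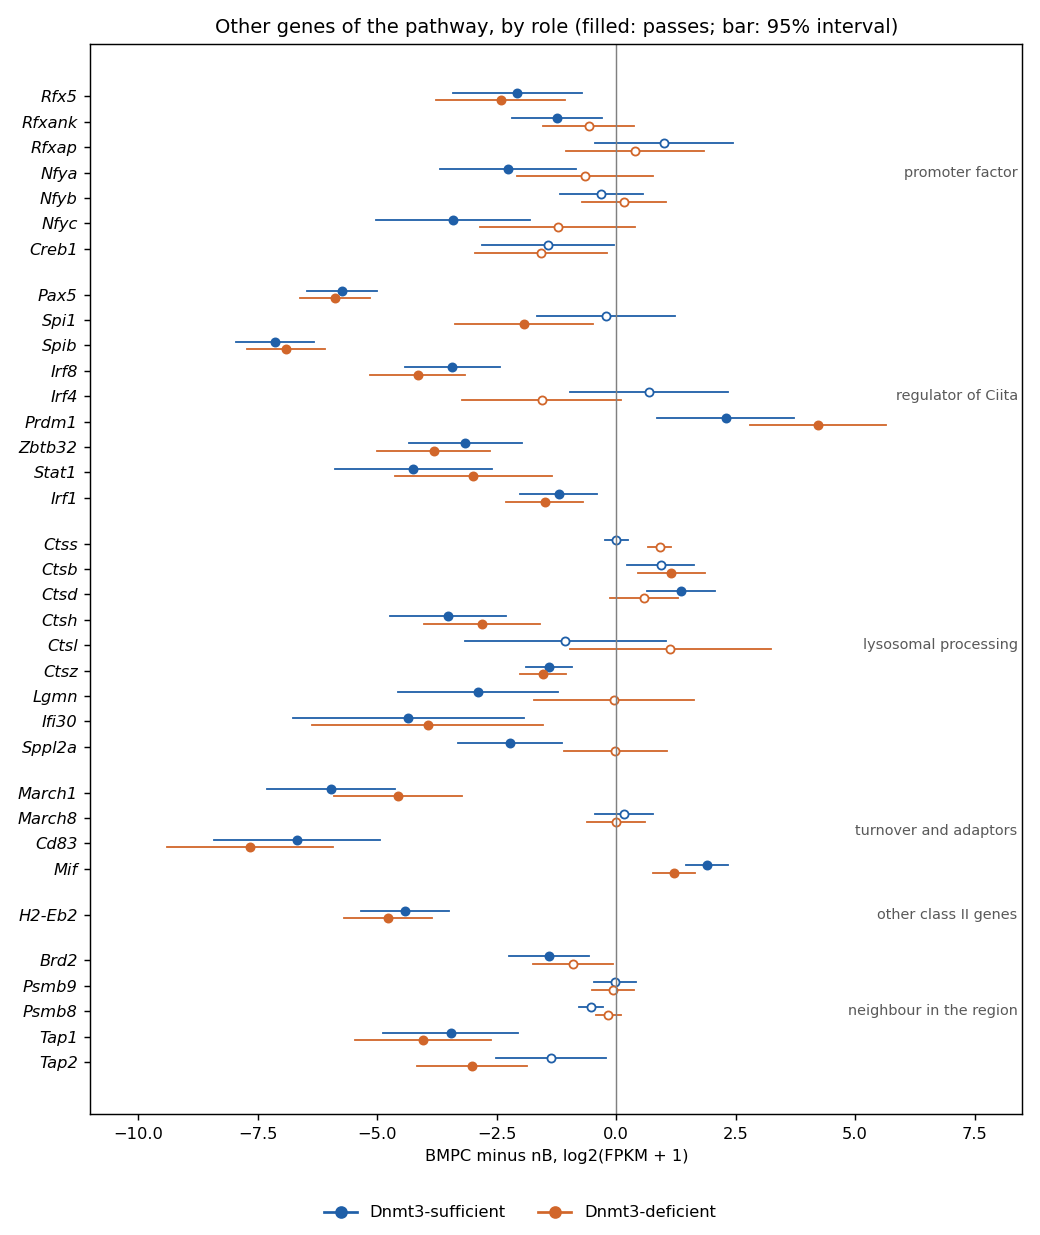
Difference between BMPC and nB on the log2(FPKM + 1) scale (horizontal axis) for the 35 other genes of the pathway, grouped by role. Filled points pass, bars are 95% intervals, and colours mark genotype. Spib and Pax5 lie at the far left, Prdm1 at the right, and Psmb9 and the Dnmt3-sufficient value of Ctss at 0.

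Between GCB and nB, 1 of the 35 was higher and 4 lower in Dnmt3-sufficient mice, and 1 higher and 5 lower in Dnmt3-deficient mice, where 7.22% and 6.31% of tested genes were higher and 6.93% and 6.61% lower. The higher one was Mif in both. Pax5 (−1.70 and −1.54), Irf1 (−2.06 and −1.69) and Ctss were among the lower ones in both, with Ctsl in Dnmt3-sufficient and Ctsb and Ctsd in Dnmt3-deficient mice. Between genotypes, 0 of the 35 passed in nB, in GCB or in BMPC, beside 0.0521%, 0% and 3.98% of tested genes.

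Genes other than the members with the profile most like the members were sought by Pearson correlation over the 18 libraries with the mean standardised profile of the 10 members, as a description of points that share cell types and depth. The 10 closest were Sorl1 (r = 0.991), Pax5, Ano6, Cr2, Cd22, Il4ra, Tlr1, Gm8369, Znfx1 and Neurl3 (r = 0.982). Pax5, Cr2, Tlr1 and Gm8369 were at 0 in all 6 BMPC libraries, as Ciita was. The members' own correlations with this profile, which holds them, ranged from 0.992 for H2-Aa to 0.900 for H2-Ob, and to 0.618 for Cd74, which ranked 3443 among the 11522 genes.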

How the data were processed

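The authors aligned read pairs with TopHat to the mouse genome (mm9), counted them per UCSC known gene and deposited FPKM values for 18 libraries, per the labels with R 3.2.2 and edgeR 3.12.1. The 54 columns of the authors' own comparisons were not used. The FPKM values came from whole reads: 100% of them gave whole read counts within 0.01 read, which supplied the depths. Of the immunoglobulin genes only Jchain and Igll1 are in these totals. Groups were taken from the labels, 3 libraries each.

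One mean per group was fitted with limma 3.58.1 (R 4.3.3) on log2(FPKM + 1) over genes above 1 FPKM in at least 2 libraries, and fold changes on this scale understate those of low genes. The p-values set each difference against the spread between these libraries, shared over all groups in the model over all libraries. Their adjustment allows for the number of genes tested. The limit of 3 reads covers counting error only. The members and lists were chosen with earlier results of these data known. The genes named are all 10 members, pathway genes that passed and the 10 closest profiles, by a rule, while Nfyb, Psmb8, Psmb9 and the marker genes were named after their values were seen. The fit was tested on simulated data with 200 genes changed 8-fold. A limit on false calls was set only with equal depths, not at the real depths. Figures used matplotlib. Alternatives were another pseudocount, no filter, another scaling, the compared groups alone, sex, library weights, recovered reads and leaving out each library. Some names and the values that need them are not reported here.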

Additional observations from a re-analysis of the deposited data

How the results depend on the processing

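Leaving out each library in turn gave 9 to 10 passing members between BMPC and nB in Dnmt3-sufficient mice and 9 in the other BMPC comparisons with nB or GCB. With a pseudocount of 0.1, 8 passed between BMPC and GCB in each genotype. Between GCB and nB the counts depended on the fit. They were 0 (pseudocount 0.1), 3 (only the groups compared), 4 (library weights), 4 (voom) and 0 (log2 CPM of recovered reads, chosen after seeing the data) in Dnmt3-sufficient mice, and 4, 4 and 4 with the groups compared, weights and voom in Dnmt3-deficient mice, with 0 to 1 and 0 when single libraries were left out. Between genotypes in BMPC the count was 2 with median of ratios scaling and 0 to 3 without single libraries, and the interactions of BMPC with nB and with GCB gave 0 to 1. That scaling moved the median of all tested genes between BMPC and GCB from −0.73 to −0.57 in Dnmt3-deficient mice, and Cd74 stayed the exception. With voom, 5 members passed between BMPC and GCB and 7 between BMPC and nB in Dnmt3-sufficient mice, and 6 in each in Dnmt3-deficient mice. Its fitted root spread fell to −0.01 for the most highly counted genes, where its weights have no meaning, and the fit to log2 CPM without weights gave 8 and 10 in Dnmt3-sufficient and 9 in each in Dnmt3-deficient mice. Of the genotype estimates in BMPC, 3 changed sign without single libraries, ranging from −1.20 to 0.49 (H2-Eb1, reversed at 0.05, 0.03 and 0.49), from −0.68 to 0.17 (H2-DMa, reversed at 0.17 and 0.15) and from −0.35 to 0.64 (H2-Ab1, reversed at −0.20 and −0.35). Their cause was not tested. In GCB, where the labels number the replicates in both genotypes, the same-numbered libraries did not deviate together (correlations 0.026, −8.1e-05 and −0.017), and the replicate block left 0 members passing. Counts of all genes passing moved by over 1.5 times in several comparisons. Between genotypes in BMPC, 459 became 0 (groups compared), 18 (weights) and 262 (voom). Between GCB and nB, 1631 and 1489 became 2964 and 2922 (groups compared) and 3259 and 3163 (weights). In nB the 6 between genotypes became 3 (pseudocount, groups compared), 20 (no filter) and 11 (weights, log2 CPM), and in GCB 0 became 2 to 3. The interactions went from 64 (BMPC with nB) to 16, 15 and 124, and from 49 (BMPC with GCB) to 13, 13, 94, 87 and 89 with the groups compared, weights, voom and, for the latter, the pseudocount and log2 CPM, and from 0 (GCB with nB) to 5 without a filter and 1 with weights. The shallow BMPC libraries limit H2-DMb1, H2-DMb2, H2-Oa and H2-Ob, which had no read in 1 to 3 of 6.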
